A study of Homo sapiens with 13 samples.

Results

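The 40 genes described here are the protein-coding genes of GENCODE release 44 that encode subunits of voltage-gated calcium channels (symbols that start with CACNA1, CACNA2D, CACNB or CACNG) and of voltage-gated sodium channels (SCN, a number, and A or B). They were chosen by symbol alone, from 20007 protein-coding genes on the autosomes, X and Y. Of the 40 genes, 10 encode the calcium-conducting pore (alpha1), 4 the alpha2delta subunit, 4 the intracellular beta subunit, 8 the gamma subunits and the related TARPs, 10 the sodium-conducting pore (alpha) and 4 the sodium channel beta subunits. Accessible chromatin was mapped by ATAC-seq, in which the transposase Tn5 cuts open DNA and inserts adapters, in H82 and H146, established human lines of small cell lung cancer (SCLC). The study assigned H82 to the NEUROD1-high subtype SCLC-N and H146 to another neuroendocrine subtype.

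The labels give 3 untreated H82 samples and 3 kept in 100 nM FHD-286, an inhibitor of the SMARCA4 and SMARCA2 ATPases of the SWI/SNF chromatin remodelling complex, for 14 days. For H146 they give 4 untreated samples and 3 that received FHD-286 at the same dose and for the same time. By the methods of the study, 3 of the untreated H146 samples came from 1 sequencing batch. The remaining untreated sample and the 3 treated ones came from another, and the H146 list pools both batches. No label gives a genetic change in any sample, and each line is a single established cell line. The data analysed here were 1 list of accessible regions per line, in which untreated and FHD-286 samples had been pooled, with a start and an end for each region and no read count. A region called in any library of a line is therefore in the list of that line. The effect of FHD-286, the spread between samples and the depth behind a region could not be measured, so every comparison below sets 1 pooled list against another, without replicates and without a test.

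Voltage-gated calcium channels open when the membrane depolarises and let calcium enter, which triggers contraction, secretion and gene expression. The alpha1 subunit forms the pore and fixes the type of current: L-type (CACNA1S, CACNA1C, CACNA1D, CACNA1F), P/Q-type (CACNA1A), N-type (CACNA1B), R-type (CACNA1E) or T-type (CACNA1G, CACNA1H, CACNA1I). The alpha2delta and beta subunits bring the pore to the surface and tune its gating. Voltage-gated sodium channels carry the upstroke of the action potential. SCLC cells are electrically excitable neuroendocrine (NE) cells, and in patients with Lambert-Eaton myasthenic syndrome, many of whom have SCLC, autoantibodies bind the P/Q-type channel. Many neuronal channel genes carry an RE1 element, the site bound by the repressor REST, and the element was named in work on SCN2A.

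Several sequences in these loci are shown first, since the regions described below lie over or beside them. An RE1 was searched for on both strands by the core words of its consensus, CAGCACC and GGACAG parted by 2 bases. Over the 40 loci, each the gene and 10 kb to either side, 11 exact matches were found. They are given 5′ to 3′ on the strand of the match, from hg38, with the core words in capitals and 5 flanking bases.
CACNA1A (chr19:13442060-13442084, minus strand): ggtttCAGCACCctGGACAGctccc
CACNA1B, first site (chr9:137878786-137878810, minus strand): gccgtCAGCACCgcGGACAGcgcct
CACNA1B, second site (chr9:137884735-137884759, minus strand): acactCAGCACCatGGACAGcgccc
CACNA1F (chrX:49200121-49200145, minus strand): cgctcCAGCACCgtGGACAGagccc
CACNA1G (chr17:50632064-50632088, minus strand): atcctCAGCACCcaGGACAGtgcct
CACNA1H (chr16:1188871-1188895, plus strand): tgattCAGCACCatGGACAGcagcc
CACNA2D2 (chr3:50405434-50405458, plus strand): actttCAGCACCatGGACAGaggta
CACNA2D3 (chr3:54188341-54188365, plus strand): tgattCAGCACCaaGGACAGcgaca
SCN10A (chr3:38755311-38755335, plus strand): gatctCAGCACCacGGACAGggaac
SCN2A (chr2:165238481-165238505, plus strand): gttctCAGCACCatGGACAGcgtta
SCN3B (chr11:123654065-123654089, plus strand): gcgctCAGCACCacGGACAGtcgcc

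The 11 matches in 7.99 Mb made 1.38 per Mb, against 575 matches and 0.380 per Mb over the loci of all protein-coding genes. With up to 1 mismatch there were 49 matches, 6.13 per Mb, against 5612 and 3.71 per Mb. A match is a run of letters and not a measured REST site. None of the 300-base promoter windows of the 40 genes (250 bases before to 50 after the 5′ end of the gene) held a match with up to 1 mismatch, and 50 of all promoters did (0.250%). The exact match nearest to the Ensembl canonical start of its own gene was that of SCN3B, 547 bp after it.

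The promoters of the channel genes spanned a wide range of base composition. The window of CACNA1B, with a region in both lines, had the highest GC content of the 40 genes, 85.3%, and 49 CpG. That of SCN1A, with a region in H82 and none in H146, held 44.3% GC and 2 CpG. Both are given 5′ to 3′ on the strand of the gene, from hg38, with each CpG in capitals.
CACNA1B promoter (chr9:137877532-137877831, plus strand): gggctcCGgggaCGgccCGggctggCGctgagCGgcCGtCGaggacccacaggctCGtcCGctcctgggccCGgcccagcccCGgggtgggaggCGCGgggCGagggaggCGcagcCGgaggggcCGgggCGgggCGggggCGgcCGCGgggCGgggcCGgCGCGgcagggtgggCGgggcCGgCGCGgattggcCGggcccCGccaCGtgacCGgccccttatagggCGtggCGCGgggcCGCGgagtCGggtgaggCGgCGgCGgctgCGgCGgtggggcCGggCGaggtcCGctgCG
SCN1A promoter (chr2:166149165-166149464, minus strand): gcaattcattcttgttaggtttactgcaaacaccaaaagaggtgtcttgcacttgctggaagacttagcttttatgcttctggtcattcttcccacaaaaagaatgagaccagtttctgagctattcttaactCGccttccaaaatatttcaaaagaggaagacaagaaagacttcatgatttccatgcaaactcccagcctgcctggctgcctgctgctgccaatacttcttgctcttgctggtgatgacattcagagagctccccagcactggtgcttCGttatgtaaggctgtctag

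A pair of intronic regions shows what a line-only region is. The first, 211 bp wide, lies in an intron of CACNA1C and was listed in H82 only. The second, 288 bp wide, lies in an intron of CACNA2D3 and was listed in H146 only. They are given on the plus strand of hg38, with CAGATG (the E-box word that NEUROD1 favours), CAGCTG (another E-box word) and the reverse complement of the first, CATCTG, in capitals.
CACNA1C, H82-only region (chr12:2139298-2139508): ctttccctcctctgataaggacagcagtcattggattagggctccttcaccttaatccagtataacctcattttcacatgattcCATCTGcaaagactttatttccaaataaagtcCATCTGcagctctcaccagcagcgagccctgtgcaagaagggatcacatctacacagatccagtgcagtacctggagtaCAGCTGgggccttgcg
CACNA2D3, H146-only region (chr3:54773357-54773644): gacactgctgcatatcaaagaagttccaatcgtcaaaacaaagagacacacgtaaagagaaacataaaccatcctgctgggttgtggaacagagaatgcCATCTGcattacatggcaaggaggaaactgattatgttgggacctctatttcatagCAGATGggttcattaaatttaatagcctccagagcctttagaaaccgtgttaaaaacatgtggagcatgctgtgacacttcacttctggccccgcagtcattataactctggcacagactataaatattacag

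The marker genes were read first. The start of NEUROD1 had a region in H82 only, and 42.6% of its locus was covered in H82 against 16.8% in H146. The NE genes SYP, CHGA, INSM1 and NCAM1 had a region at the start in both lines. The leukocyte gene PTPRC had none in either line. The fibroblast gene COL1A1 and the endothelial gene PECAM1 had a start region in both lines, and expression was not measured here.

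The lists differed in size and shared many boundaries. Regions covered 167 Mb in H82 and 139 Mb in H146, a log2 ratio of 0.27, so a somewhat higher coverage in H82 is the background for each gene below. Over the 35 distinct loci left after joining overlapping windows, 519 kb (6.49%) was covered in H82 and 483 kb (6.04%) in H146, a log2 ratio of 0.10. Of 386 pairs of an H82 and an H146 region at the channel loci that overlapped each other and no other, 97 had the same start to the base. Any other start offset of up to 12 bp was seen in 1.25 pairs on average and in 5 at most. Both ends were the same in 45 pairs. How this arose was not tested, and values without the regions that shared a boundary are given where they differ.

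Most channel genes had an open start in both lines, and within 1 kb of the 5′ end those open in a single line were open in H82. A start was called open in a line when a region lay within 1 kb of it. With the start taken as the 5′ end of the gene, 29 of the 40 genes (72.5%) were open in both lines. Another 6 (15%) were open in H82 alone, 0 in H146 alone, and 5 (12.5%) had no region in either. Among all protein-coding genes these classes held 75.4%, 5.09%, 1.86% and 17.7%. The 6 genes open in H82 only were SCN1A, SCN2B, CACNA2D4, CACNA1H, CACNG2 and CACNA1F, and the 5 open in neither were SCN10A, CACNA1D, CACNA1C, CACNG8 and CACNA1I. In 9 of the 29 genes open in both lines, a region at the start had the same start or end in both lists. Without such regions 20 genes were open in both lines, 6 in H82 alone, 1 (SCN4A) in H146 alone and 13 in neither. Over all genes the same classes then held 53.9%, 5.99%, 2.53% and 37.6%. The lean to H82 depended on the window: within 5 kb of the 5′ end 2 genes were open in H82 alone and 2 (SCN10A and CACNA1I) in H146 alone, against 4.62% and 1.80% of all genes, and with every annotated transcript start 3 were open in H82 alone, against 4.34%.

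The start of SCN1A, the neuronal sodium channel mutated in Dravet syndrome, lay in an H82 region of 1250 bp, and the nearest H146 region was 17625 bp away. CACNG2, which encodes the TARP stargazin that carries AMPA receptors to the synapse, had an H82 region of 456 bp, and the nearest H146 region was 42998 bp away. In these 2 genes the start stood far from any H146 region, and they stayed open in H82 only when the window was widened to 5 kb. In the other 4 genes an H146 region lay closer. CACNA2D4, an alpha2delta gene of the retina, had an H82 region of 1408 bp and an H146 region 2875 bp away. CACNA1F, the L-type pore of photoreceptors, had 1145 bp in H82 and an H146 region 1857 bp away. CACNA1H, a T-type pore, and SCN2B, a sodium channel beta subunit, had narrow H82 regions of 496 bp and 243 bp, with H146 regions 1602 bp and 1082 bp away.

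Channel genes often have several promoters, and 25 of the 40 genes had more than 1 cluster of annotated starts, 97 clusters in all. Of these, 51 were open in both lines, 9 in H82 alone, 5 in H146 alone and 32 in neither. The shares over the start clusters of all protein-coding genes are not given, so these cluster counts have no background. At the Ensembl canonical start 30 genes were open in both lines, 6 in H82 alone, 0 in H146 alone and 4 in neither, against 77.8%, 4.74%, 1.69% and 15.7% of all genes. By either choice of start 5 genes were open in H82 only. SCN1A left this group, since its canonical start lies 21.2 kb inside the gene and was open in both lines (700 bp in H82 and 1485 bp in H146). CACNA1E, the R-type pore, joined it: its 5′ end was open in both lines, with 2329 bp in H82 and 2485 bp in H146, and its canonical start 166 kb downstream had a region of 1196 bp in H82 and none in H146.

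A further 2 L-type genes with no region at the 5′ end had an open canonical start. CACNA1C, the L-type pore of heart and brain, had 661 bp in H82 and 688 bp in H146 at a start 82.2 kb into the gene. CACNA1D, the L-type pore of endocrine cells and pacemaker neurons, had 801 bp in H82 and 2696 bp in H146 at a start 166 kb into the gene. CACNA1A showed the opposite arrangement: its 5′ end was open in both lines (1226 bp in H82 and 1859 bp in H146), and its canonical start, 127 kb inside, had a region in neither. No protein-coding transcript of CACNA1A is annotated to start at the 5′ end of the gene. The nearest such start lies 8.54 kb inside and was open in both lines. The 5 start clusters open in H146 only were internal and not canonical, with 2 in CACNA1A and 1 each in SCN3A, SCN11A and CACNA1D.

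The promoters without a region in H146 were mostly poor in CpG, with CACNA1H (84.3% GC) as an exception. The 29 genes open in both lines had a median GC content of 68.3% and a median observed-to-expected CpG ratio of 0.684 over the 300-base window. The 6 genes open in H82 only had medians of 49.3% and 0.286, and the 5 open in neither had 49.0% and 0.226. Over all protein-coding genes the same classes had 63.3% and 0.787, 54.7% and 0.326, and 45.7% and 0.210. The sodium channel genes SCN8A (40.7% GC), SCN3A (43.0%), SCN3B (43.0%) and SCN2A (44.3%) had the lowest GC content among the genes open in both lines. The region at the 5′ end of SCN2A was narrow, 200 bp in H82 and 724 bp in H146, and with a window of 500 bp it was seen in H82 only. These widths and the GC content of SCN2A belong to the 5′ end, where none of its protein-coding transcripts is annotated to start. Its canonical start, 44.4 kb inside the gene, was open in both lines. The widest region there measured 2067 bp (H82) or 2116 bp (H146).

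The share of a locus covered by regions ranged from 0.370% (SCN10A) to 52.0% (CACNA1G) in H82 and from 0.810% (CACNG3) to 34.7% (SCN4A) in H146. In 7 genes (17.5%) the share was at least 2 times higher in H82, against 16.3% of all protein-coding genes and 15.5% of those of 100 kb or longer. In 1 gene (2.5%) it was at least 2 times higher in H146, against 2.77% and 1.34%. These shares were near the background. Without the regions that shared a start or end in both lists, the counts were 8 in H82 and 3 in H146. The shares over all genes without these regions are not given, so these counts have no background. H82 covered more in 20 genes and H146 in 20, whereas over all genes H82 covered more in 59.4%. The median log2 ratio of H82 to H146 was -0.04 over the channel genes, 0.16 over all genes and 0.17 over genes of 100 kb or longer. Relative to the ratio of the chromosome of each gene, the medians were -0.04, -0.09 and -0.07, and the lower value of the channel genes was no longer seen.

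**Figure D1:**
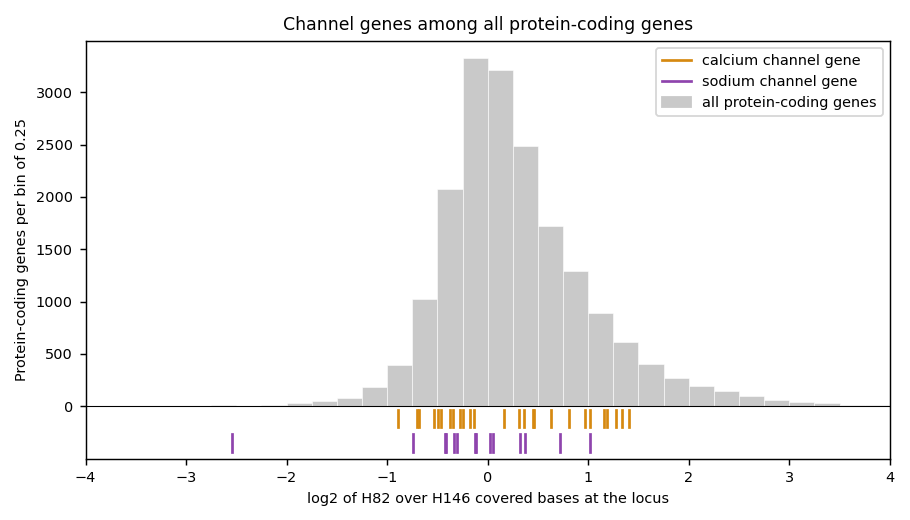
Histogram of the log2 ratio of H82 to H146 covered bases over protein-coding genes (grey bars, number of genes per bin of 0.25; the axis is cut at -4 and 4), with 1 tick below the axis for each of the 26 calcium and 14 sodium channel genes. The channel genes run from -2.55 (SCN10A) to 1.41 (CACNA1C), with 20 above 0 and 20 below.

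Among the calcium channel pores, CACNA1C and CACNA1G had the greatest excess in H82. The locus of CACNA1C was covered by 43 regions and 2.98% in H82 and by 18 regions and 1.13% in H146, 2.65 times the share. CACNA1G, a T-type pore, was covered to 52.0% in H82 and 22.8% in H146, 2.28 times the share, and had the widest region of all channel loci, 10891 bp over its start in H82 against 4086 bp in H146. CACNA1F was covered to 16.4% and 8.07%, 2.03 times, but the widest region in its locus, 3687 bp in H82 against 1027 bp, lies over the start of the neighbouring gene SYP, and over the gene body alone the ratio was below 2.

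The covered shares of the pores of presynaptic calcium channels did not all lean to the same line. CACNA1A was covered to 3.44% by 24 regions in H82 and to 5.50% by 34 regions in H146. CACNA1B, the N-type pore, was covered to 9.01% by 29 regions in H82 and to 6.61% by 17 in H146. CACNA1E was covered to 5.69% in H82 and 6.72% in H146. None of these 3 differed by 2 times. The other pores also stayed within 2 times. CACNA1D had 1.95% in H82 and 2.53% in H146, CACNA1H 31.4% and 34.5%, and CACNA1I 4.26% and 6.15%. CACNA1S, the pore of skeletal muscle, had 31.0% and 20.1%, a log2 ratio of 0.63 against 0.62 for its chromosome.

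Of the auxiliary calcium channel genes, CACNB4, the main beta subunit of cerebellum and a partner of CACNA1A, differed most in number of regions, with 37 covering 8.24% in H82 and 15 covering 3.70% in H146 (2.23 times). The start region of CACNB4 was alike in width, 2224 bp against 2256 bp, so the excess lay in the gene. The other beta genes stayed within 2 times. CACNB1 was covered to 31.4% in H82 and 18.0% in H146, CACNB2 to 5.58% and 4.06%, and CACNB3 to 23.4% and 33.0%. The 4 alpha2delta genes were closer still, from 0.723 times (CACNA2D3, 3.53% in H82 and 4.88% in H146) to 1.24 times the H146 share (CACNA2D2, a target of gabapentin, 9.24% and 7.44%).

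The gamma and TARP genes included small loci with few regions. CACNG3, a TARP, was covered to 2.04% by 7 regions in H82 and to 0.810% by 3 in H146 (2.52 times). CACNG8, another TARP, had 3 regions over 3308 bp in H82 and 2 over 1368 bp in H146 (2.42 times), with no region within 10 kb of its start. The widest of these in H82, 1933 bp, lies over the start of the adjoining CACNG6, and that in H146, 988 bp, ends 967 bp before it. The window of CACNG6 shares 18579 bp with that of CACNG8. CACNG5 leaned the other way, with 6.85% in H82 and 12.7% in H146, and CACNG4 likewise, with 17.6% and 22.4%. CACNG7 had 1 region in H82 and 3 in H146.

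The sodium channel pores held the gene with the greatest excess in H146. SCN10A, a channel of sensory neurons, had 2 regions covering 0.370% in H82 and 6 covering 2.16% in H146, 5.84 times the H82 share, with no region at its start in either line. The H82 value rests on 516 bp. SCN1A was covered to 3.73% by 11 regions in H82 and to 1.84% by 5 in H146 (2.03 times). SCN8A, a channel of the axon initial segment, was covered to 5.70% by 19 regions in H82 and to 3.46% by 7 in H146 (1.65 times), and passed 2 times when only the gene body was read. SCN2A, SCN3A and SCN9A leaned to H146, with 5.40% against 6.68%, 2.97% against 3.98%, and 3.91% against 4.92%.

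SCN4A, the channel of skeletal muscle, stayed within 2 times, with 32.0% in H82 and 34.7% in H146. So did SCN7A, which encodes a sodium sensor (0.749 times the H146 share in H82), and SCN11A of sensory neurons (1.53% and 2.57%). The sodium channel beta genes lay within 1.5 times between the lines: SCN2B with 20.3% in H82 and 19.9% in H146, SCN3B with 8.67% and 6.96%, and SCN4B with 14.0% and 15.3%.

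**Figure D2:**
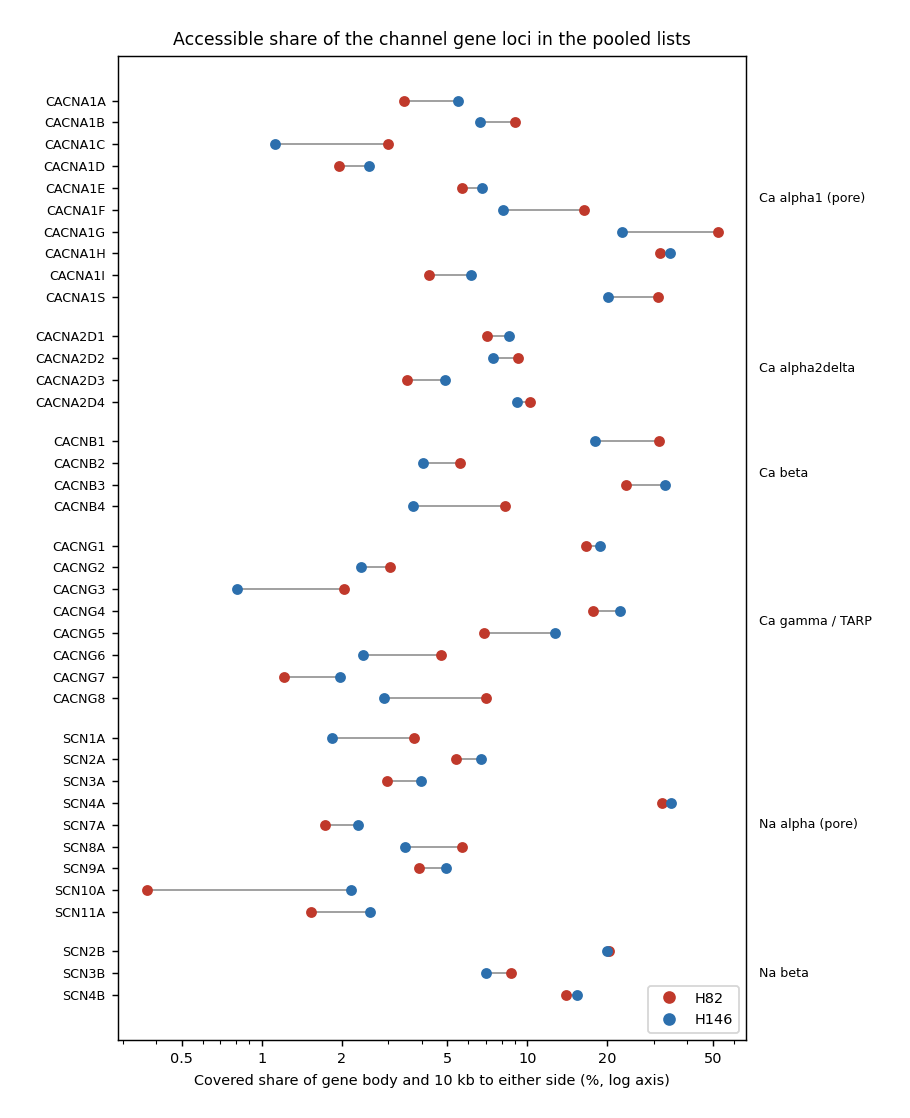
Covered share of each locus (gene and 10 kb to either side, in %, log axis) in the pooled H82 list (red) and the pooled H146 list (blue), 1 point per line and gene for 38 of the 40 genes, grouped by subunit. The lines between points are longest for SCN10A (0.370% in H82 and 2.16% in H146), CACNA1C, CACNG3 and CACNG8, and CACNA1G has the highest H82 share at 52.0%.

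The 2-fold calls were not equally firm. CACNA1C and CACNG3 passed 2 times in H82 over the gene body alone, with 50 kb to either side, by number of regions, with regions of at least 500 bp alone and relative to the ratio of their chromosome, and failed only within 10 kb of the start. CACNB4 failed there and relative to its chromosome. SCN1A failed under 3 of these 6 alternatives, CACNA1G under 4 (50 kb to either side, number of regions, 10 kb of the start and relative to its chromosome), CACNG8 under 5 and CACNA1F under each. SCN10A kept its call in 5 of them, and lost it with 50 kb to either side. Where a line had 0 bp, any covered base in the other made the call. Such were the calls within 10 kb of the start for SCN10A (239 bp in H146) and SCN1A (1250 bp in H82). With regions of at least 500 bp alone, such were the calls for SCN10A (1456 bp in H146) and CACNG3 (1224 bp in H82).

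Regions seen in a single line were narrower than shared regions, and most regions of either kind were intronic. At the channel loci 271 of 696 H82 regions (38.9%) overlapped no H146 region, against 40.7% of the whole H82 list. Of 605 H146 regions, 182 (30.1%) overlapped no H82 region, against 29.5% of the whole H146 list. These shares were near those of the whole lists. The median width was 356 bp for H82-only and 618 bp for shared H82 regions, and 325.5 bp for H146-only and 715 bp for shared H146 regions. In introns lay 78.6% of the H82-only and 78.6% of the H146-only regions, and 68.7% of the shared H82 and 67.8% of the shared H146 regions. At a gene start lay 6 H82-only regions and 0 H146-only regions, and 26 H82-only and 4 H146-only regions were over 1 kb wide. In the whole lists, too, line-only regions were more numerous and wider in H82, with a median of 377 bp against 315 bp in H146. Whole-list shares at a gene start or over 1 kb are not given.

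H82-only regions outnumbered H146-only regions in 24 genes, and the reverse held in 15. The whole lists held 84208 H82-only and 51303 H146-only regions, so more H82-only regions is the background here. The same count per gene over all protein-coding genes is not given. CACNA1C held 32 H82-only and 7 H146-only regions. CACNB4 held 27 and 5, and CACNA2D2 19 and 6. These 3 genes had the most H82-only regions. CACNA2D3 held 26 H146-only and 13 H82-only regions, CACNA2D1 19 and 16, and CACNA1E 17 and 10, the most H146-only regions. They are among the longest channel genes, and CACNA2D3 is the longest at 952 kb. CACNA1A and CACNA1B were opposite, with 15 H146-only and 4 H82-only regions in CACNA1A and 2 H146-only and 16 H82-only regions in CACNA1B. SCN8A held 12 H82-only and 0 H146-only regions, and SCN1A 6 and 0.

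**Figure D3:**
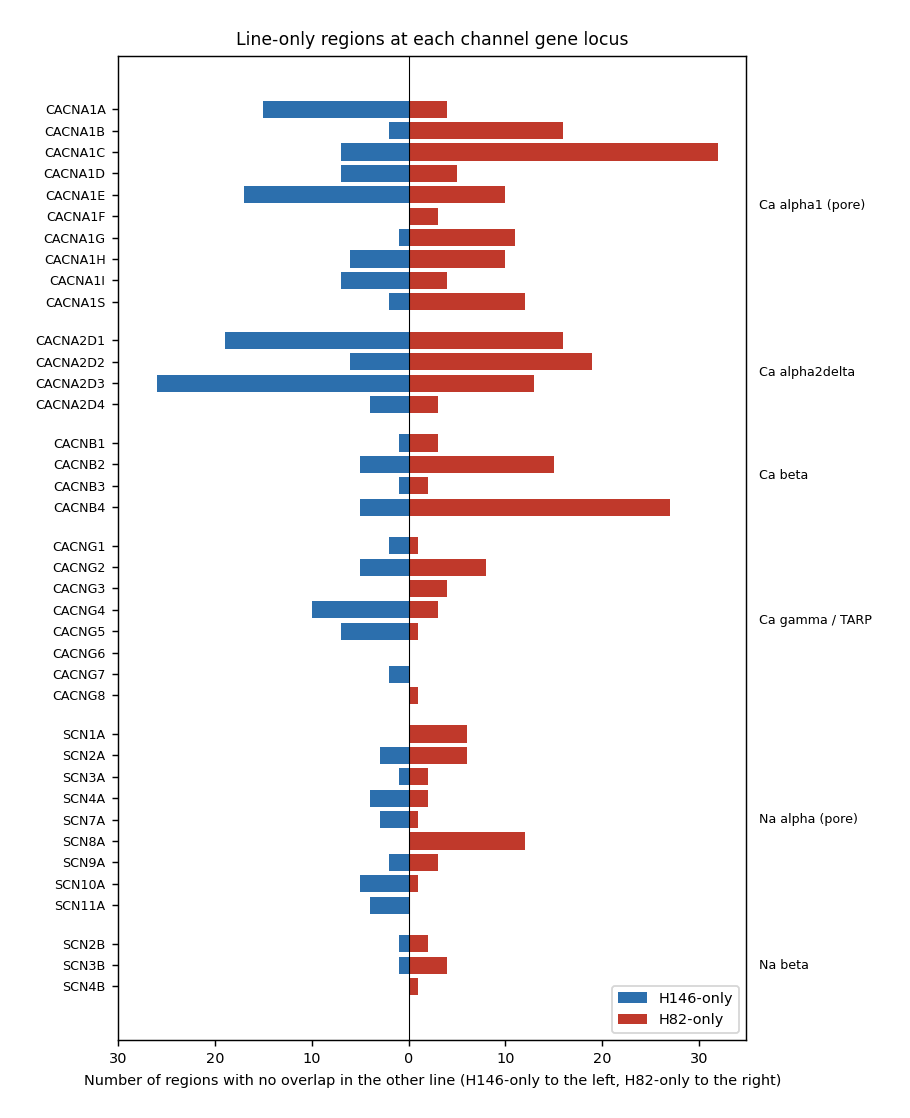
Number of regions at each locus that overlap no region of the other list, H146-only to the left (blue) and H82-only to the right (red), for 38 of the 40 genes, grouped by subunit. CACNA1C (32) and CACNB4 (27) reach furthest to the right, CACNA2D3 (26) furthest to the left, and CACNG6 has none on either side.

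The widest line-only regions were internal. In CACNB4 an H82-only region of 1980 bp lay in an intron 250 kb from the 5′ end of the gene. In CACNA1G an H82-only region of 1639 bp lay 9.73 kb from the 5′ end, within 1 kb of the start of another transcript. In CACNA2D3 the widest H146-only region, 1622 bp, lay in an intron 182 kb from the 5′ end. In SCN10A an intronic H146-only region of 1456 bp, 92.3 kb from the 5′ end, was the widest in a locus with 3014 bp covered in that line. The start region of CACNA2D4 was itself an H82-only region of 1408 bp.

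**Figure D4:**
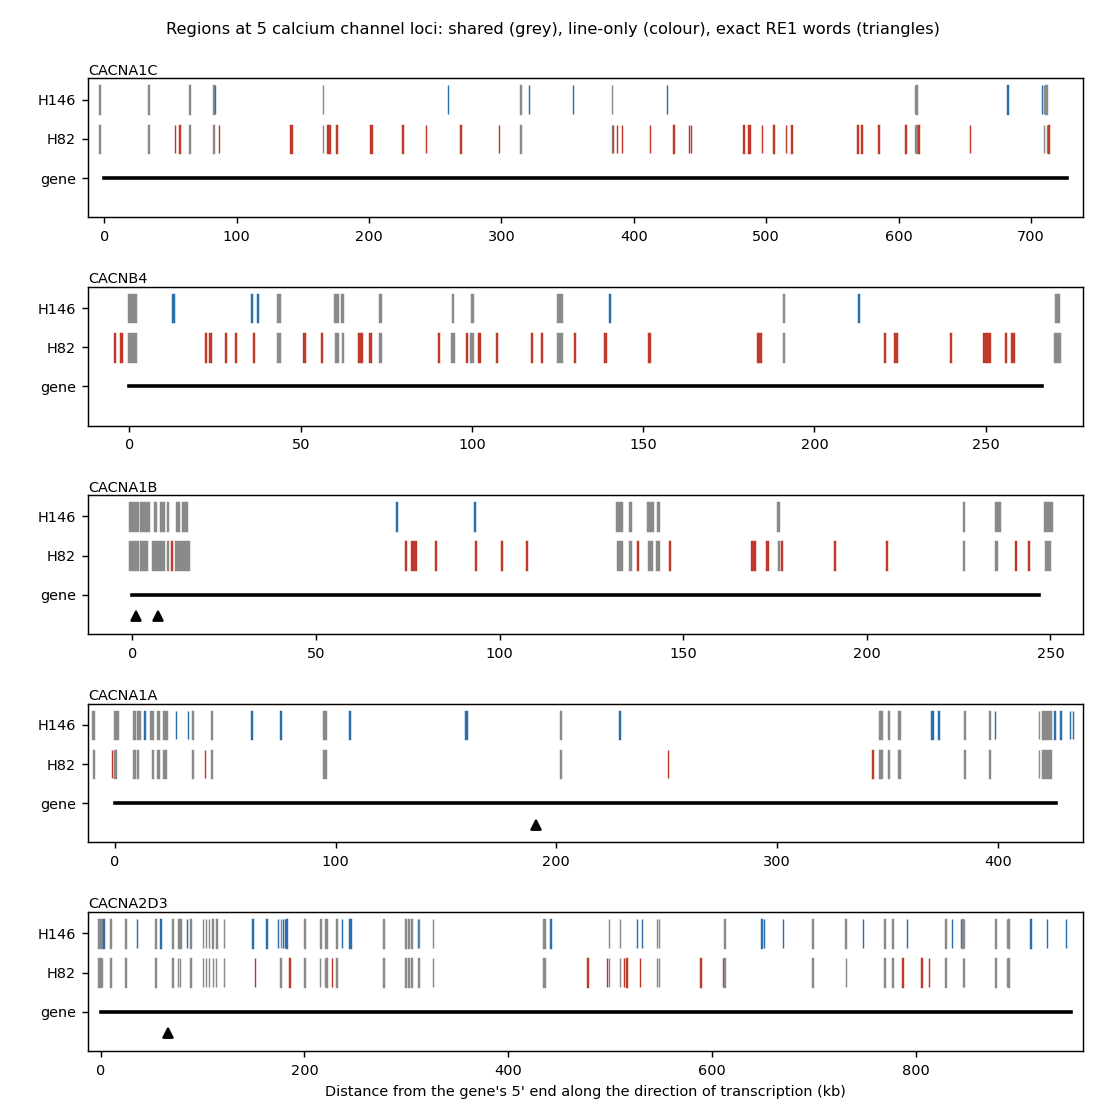
Regions over CACNA1C, CACNB4, CACNA1B, CACNA1A and CACNA2D3, by distance from the 5′ end of the gene in kb along its direction of transcription, with shared regions in grey, line-only regions in colour (H82 red, H146 blue), the gene as a black bar and exact RE1 words as triangles. H82-only regions are spread along CACNA1C (32) and CACNB4 (27), and CACNA1A holds 15 H146-only regions.

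The E-box and homeobox words in the line-only regions differed between the lines in the same direction as over all loci. CAGATG stood at 1.27 per kb in H82-only and 0.962 per kb in H146-only regions of the channel loci, and at 1.20 and 0.901 over the loci of all protein-coding genes. CAGCTG stood at 0.990 and 1.07 per kb, against 0.818 and 0.875. TAATCC, the word read by OTX2 and CRX, stood at 1.01 and 0.370 per kb, against 1.22 and 0.458. TGTTTAC, the forkhead word, stood at 0.0454 and 0.251 per kb, from only 6 and 17 matches, against 0.125 and 0.288. Words were counted on both strands.

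Some of the exact RE1 words printed above lay in regions, which covered 6.49% of the bases of these loci in H82 and 6.04% in H146. In the channel loci 5 of the 11 (45.5%) lay in an H82 region and 3 (27.3%) in an H146 region, against 35.7% and 26.1% of the 575 matches over all loci. The first site of CACNA1B, 1016 bp after the 5′ end, lay in the start region of both lines (2698 bp in H82, 2419 bp in H146). The second, 6965 bp after the 5′ end, lay in an H82 region of 3288 bp, and the nearest H146 region was 621 bp away. In CACNA1H the word lay in an H82 region of 459 bp and 37 bp from the nearest H146 region. In SCN3B, and in the flank of CACNA1F next to the start of SYP, it lay in a region of both lines.

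The word of SCN2A stood 921 bp before the canonical start, outside the regions of both lines, 796 bp from the nearest in H82 and 747 bp in H146. The words of CACNA1A, CACNA2D2 and CACNA2D3 lay deep in introns, at 191 kb, 98.8 kb and 65.8 kb from the 5′ end, and in none was a region within 3 kb in either line. The word of SCN10A was 616 bp from an H146 region and 16362 bp from an H82 region. That of CACNA1G, beyond the end of the gene, was 1013 bp from an H82 region and 928 bp from an H146 region.

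Channel genes that lie side by side did not all share 1 pattern, and the pattern depended on the start that was read. On chromosome 2, SCN3A and SCN2A, transcribed in opposite directions, overlap at their 5′ ends in windows that share 29058 bp, and both were open at the start in both lines. SCN1A, on the same chromosome arm, was open at its 5′ end in H82 only, and its neighbours SCN9A (1856 bp in H82, 2010 bp in H146) and SCN7A (202 bp in each) were open in both. At the canonical start SCN3A, SCN2A, SCN1A, SCN9A and SCN7A were all open in both lines. The region at the 5′ end of SCN7A had the same start and end in both lists, and without such regions SCN7A was open in neither. On chromosome 3, SCN10A was open in neither line, and SCN11A in both, with a region of 1209 bp in H82 and 1529 bp in H146 that also covers the start of WDR48. Without the regions that shared a boundary SCN11A, too, was open in neither. On chromosome 12, CACNA2D4 was open in H82 only at its 5′ end and at its canonical start. The adjoining CACNA1C was open at its canonical start in both lines and at its 5′ end in neither.

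**Figure D5:**
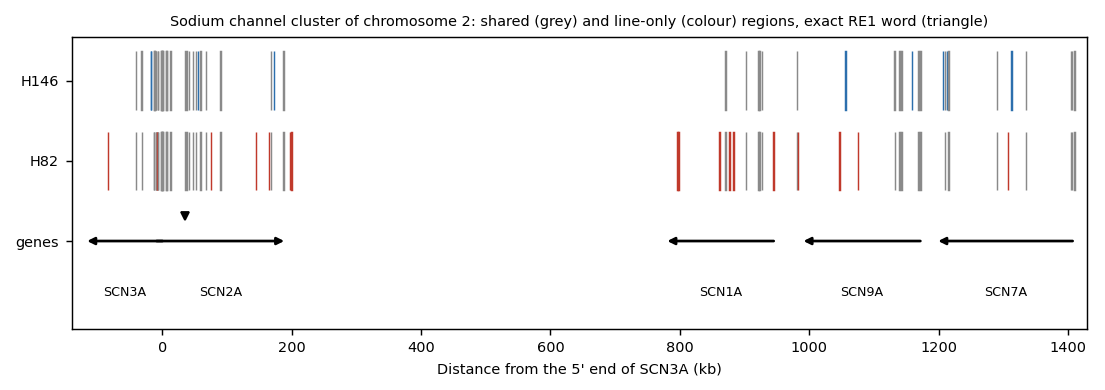
Sodium channel genes of chromosome 2 by distance from the 5′ end of SCN3A in kb, with arrows in the direction of transcription, shared regions in grey, H82-only regions in red, H146-only regions in blue and the exact RE1 word as a triangle. SCN1A holds 6 H82-only and 0 H146-only regions, and SCN2A 6 and 3.

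Genes that work with these channels were read in the same way. Of 25 partner genes (intracellular FGFs, the NALCN leak channel complex, STAC and RGK proteins, active zone and ankyrin-linked proteins), 21 were open at the start in both lines, 1 (STAC3) in H82 alone, 0 in H146 alone and 3 (FGF12, RIMBP2 and FGF13) in neither. The covered share was at least 2 times higher in H82 in 5, NFASC (21.3% and 8.28%), RIMS1 (1.40% and 0.563%), RRAD (23.3% and 11.2%), FGF11 (49.0% and 17.8%) and CBARP (81.0% and 30.1%), and in H146 in 0. These 5 genes were 20% of the partners, near the 16.3% of all genes. Starts open in both lines, H82 alone, H146 alone and neither made 84%, 4%, 0% and 12% of the partners. Over all genes these classes held 75.4%, 5.09%, 1.86% and 17.7%. CBARP and RRAD are inhibitors of calcium channels, and NFASC anchors sodium channels at the axon initial segment. The median log2 ratio was 0.41 over the partner genes and 0.16 over all genes, and relative to the chromosome 0.11 and -0.09.

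Other channel and receptor families served as a comparison. Of 96 potassium channel genes 7 (7.29%) were open at the start in H82 only and 2 (2.08%) in H146 only. At least 2 times the share was found in H82 in 13 (13.5%) and in H146 in 2 (2.08%). Of 51 glutamate, GABA and glycine receptor genes these counts were 5 (9.80%), 1 (1.96%), 15 (29.4%) and 2 (3.92%). The same shares were 5.09%, 1.86%, 16.3% and 2.77% of all genes, and 15%, 0%, 17.5% and 2.5% of the calcium and sodium channel genes. The median log2 ratio was 0.11 over the potassium channel genes and 0.37 over the receptor genes, against -0.04 over the calcium and sodium channel genes. Relative to the chromosome these medians were -0.14, 0.09 and -0.04, which turns the order of the potassium channel genes and the calcium and sodium channel genes. The differences between the families were not tested.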

How the data were processed

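ATAC-seq of H82 and H146 was used as 2 deposited region lists. According to the labels and the methods of the study, the authors trimmed reads with Trim Galore 0.4.4, aligned them to hg38 with bowtie2 2.3.4, removed duplicates with Picard, and ran MACS2 on each sample (version not given in the sources used here). Blacklisted regions were dropped, and regions of 1 line closer than 500 bp were joined across its samples. The values the authors deposited are region starts, counted from 0, and ends in bp, with 0 columns per sample. Merging widens regions, and more or deeper libraries give a longer list. Depth was unknown.

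Regions were read against GENCODE release 44 on the same build, with 1 gene per symbol on 24 chromosomes, using Python 3.11.15 and numpy 2.4.6. Coordinates are printed 1-based. A TSS was open with a region within 1 kb (at least 1 bp of overlap). A locus was the gene and 10 kb to either side. A region was shared if it overlapped the other list by at least 1 bp. Start clusters joined transcript starts within 1 kb. Named genes were those whose start class differed between lines, whose share differed at least 2 times, and the 3 per line with the most line-only regions and the one with the widest region, with CACNA1A, CACNA1B, SCN2A, SCN3A and SCN9A in any case. Other members named with values were added after their values were seen. The gene families, the lists and the comparisons were chosen with earlier results of these data known. Within the families, the members were taken by symbol alone. The overlap counts were tested on simulated regions. Of the members, 2 enter every count but are not reported by name. A comparison of FHD-286 with untreated cells was not possible on pooled lists. Alternatives covered the window, flank, fold, minimum width, overlap rule, start definition and regions with a common boundary.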

Additional observations from a re-analysis of the deposited data

How the results depend on the processing

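The counts of channel genes rest on small numbers and on the window. With the start window widened to 5 kb, 2 genes were open in H82 only, 2 in H146 only (SCN10A and CACNA1I) and 2 in neither, against 4.62%, 1.80% and 9.50% of all genes. With every annotated transcript start 3 were open in H82 only and 3 in neither, against 4.34% and 13.5%. With regions of at least 500 bp alone, 5 genes were open in H82 only, 1 (SCN2A) in H146 only and 9 in neither. Over all genes these classes held 4.53%, 1.75% and 22.8%. In that setting 2 genes had at least 2 times the share in H146, and 115 H82-only and 91 H146-only regions were counted. Leaving out the regions that share a start or end in both lists was an alternative chosen after seeing the data. It left 1 gene open in H146 only and 13 in neither, against 2.53% and 37.6% of all genes. In that setting 3 genes had at least 2 times the share in H146. The number of genes with at least 2 times the share in H82 was 3 with 50 kb to either side, 3 within 10 kb of the start, 11 at a threshold of 1.5 times and 2 relative to the chromosome. That for H146 was 0 with 50 kb to either side, 2 over the gene body alone, 2 by number of regions, 5 at 1.5 times and 2 relative to the chromosome. Shares over all genes are not given for any alternative to the covered share, so these counts have no background. Asking for an overlap of 50% of both regions gave 293 H146-only regions. Fewer or wider regions enter by construction under the changed window, width and threshold, and the cause of the other shifts was not tested. Over the 6 share alternatives, the 7 genes called higher in H82 kept that call in 20 of 42 cases and lost it in 22, with 0 reversals. No paired analysis was possible because the region lists pool all samples of a line and no result comes from a test.

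No value here has an error. The lists hold no scores, counts or libraries, so weak and strong regions count alike, and untreated and treated cells cannot be told apart.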

Other observations

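Across the whole lists, 113588 pairs of an H82 and an H146 region overlapped each other and no other region. Of these, 34514 (30.4%) had the same start to the base and 34576 (30.4%) the same end, and 19180 (16.9%) had both. Any other start offset of up to 12 bp was seen in 280 pairs on average and in 529 at most. Both ends were the same for 2821 regions of at least 1 kb. At the channel loci the shares were 25.1% for the start, 24.4% for the end and 11.7% for both. The widest region at the SCN4A locus is an example: it began at the same base in both lists, and was 6342 bp wide in H82 and 6548 bp in H146. How the common boundaries arose was not tested, and where they are present, being open in both lines is not an independent reading of each line.

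Across all protein-coding genes, leaving out the regions with a common boundary gave 53.9% open at the start in both lines, 5.99% in H82 alone, 2.53% in H146 alone and 37.6% in neither.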
